A study of Mus musculus with 24 samples.

Results

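Of 9 recombinant inbred (RI) BXH mouse strains, the 3 strains BXH6, BXH10 and BXH19 had a low lung level of Akr1e1 and the 6 strains BXH2, BXH4, BXH7, BXH8, BXH9 and BXH14 a high one. The low-Akr1e1 strains gave 6 of the 24 arrays of the series and the high-Akr1e1 strains 12. Every array measured total lung RNA of untreated male mice aged 8 weeks on an Affymetrix Mouse 430A chip, with 2 arrays per strain. The other arrays came from the progenitors C3 and B6 and from their F1 hybrid. The strains were chosen by their measured Akr1e1 signal, so that signal is a description and was not tested. The question was which genes of chromosome 13, where Akr1e1 lies, and which genes of other chromosomes had the same division of strains.

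An RI strain descends from the cross of both progenitors by repeated inbreeding, so that nearly every locus carries the allele of a single progenitor. Genes that lie close together on a chromosome are usually inherited together, so a gene near a divided locus is often divided in the same strains, and a gene on another chromosome can share that division by chance of inheritance. Akr1e1 encodes an aldo-keto reductase, a family of enzymes that reduce aldehydes and ketones with NADPH. The mouse enzyme reduces 1,5-anhydrofructose, a sugar made from glycogen.

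The single probe set of Akr1e1 had a lowest signal of 90.0, a median of 173 and a highest of 202 over the 6 arrays of low strains. Over the 12 arrays of high strains the lowest was 387, the median 464 and the highest 582. The arrays nearest to the gap were one of BXH19 at 202 and one of BXH4 at 387. C3 averaged 196, B6 534 and the F1 hybrid 282, so the low strains lay near C3 and the high strains near B6. All signals are linear, and differences below are of log2(signal + 16) between strain means, low minus high strains.

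Wnt4 was the single gene called between both sets of strains. Agtrap, which was not called, had the next smallest p among the tested genes of the same chromosome. The promoters of Akr1e1, Wnt4 and Agtrap are shown as sequence only, and promoter activity was not measured. Each holds 250 bases before and 50 after the annotated start, from RefSeq on GRCm38.p6, 5′ to 3′ on the gene's strand, with the letters CCAAT or their complement ATTGG in capitals. They lie at chr13:4609115-4609414 on the minus strand for Akr1e1, chr4:137277385-137277684 on the plus strand for Wnt4 and chr4:148088015-148088314 on the minus strand for Agtrap.
Akr1e1: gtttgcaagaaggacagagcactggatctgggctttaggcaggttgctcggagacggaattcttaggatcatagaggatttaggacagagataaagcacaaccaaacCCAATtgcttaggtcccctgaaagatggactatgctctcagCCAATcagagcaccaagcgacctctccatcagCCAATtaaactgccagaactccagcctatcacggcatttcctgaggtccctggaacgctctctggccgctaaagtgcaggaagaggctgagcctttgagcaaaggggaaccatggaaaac
Wnt4: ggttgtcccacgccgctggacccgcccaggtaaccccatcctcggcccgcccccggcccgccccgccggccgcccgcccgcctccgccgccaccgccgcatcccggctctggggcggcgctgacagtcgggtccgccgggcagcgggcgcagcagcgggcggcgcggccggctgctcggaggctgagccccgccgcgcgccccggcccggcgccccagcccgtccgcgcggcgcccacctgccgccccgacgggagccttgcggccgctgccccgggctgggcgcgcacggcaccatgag
Agtrap: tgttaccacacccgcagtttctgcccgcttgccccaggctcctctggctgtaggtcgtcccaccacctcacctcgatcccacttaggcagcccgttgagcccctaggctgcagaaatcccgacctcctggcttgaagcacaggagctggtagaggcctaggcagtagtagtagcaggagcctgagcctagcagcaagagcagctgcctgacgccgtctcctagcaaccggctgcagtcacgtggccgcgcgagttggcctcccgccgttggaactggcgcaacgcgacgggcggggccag
The Akr1e1 window held 3 CCAAT matches, and those of Wnt4 and Agtrap held 0. Of 32851 promoters of the same length, 37.4% held at least 1 match on either strand. The GC content was 50.7% for Akr1e1, 84.3% for Wnt4 and 64.7% for Agtrap, against a median of 52.7% over all promoters. These are letters of the B6-derived assembly and say nothing of the alleles of any strain measured here.

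Of 8279 genes tested beside Akr1e1, 1 gene, 0.0121%, passed an adjusted p of 0.05 with limma on the 9 strain means, and it lay on chromosome 4. Wnt4, a secreted signalling protein, had a lowest signal of 40.5, a median of 92.5 and a highest of 129 on the 6 arrays of low strains. On the 12 arrays of high strains its lowest signal was 165, its median 214 and its highest 297. No array of a low strain reached any array of a high strain, and Wnt4 fell in the low strains by 1.32 on the log2 scale (SE 0.13, limma adjusted p = 0.00474). The exact two-sided permutation p over the 84 ways of choosing 3 of 9 strains was 0.0238, the smallest that this design allows. Every gene with non-overlapping strain means has this p, and 191 genes, 2.31%, are of that kind, so it adds nothing to the absence of overlap.

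The Wnt4 signal averaged 178 in C3, 304 in B6 and 154 in the F1 hybrid. The low strains averaged 86.8 and so lay under C3 as well as under B6. The high strains BXH2, BXH7, BXH9 and BXH14 also lay nearer C3 than B6, so that by the nearer progenitor Wnt4 matched the Akr1e1 division in 5 of 9 strains. C3 minus B6 was -0.74 for Wnt4 (limma unadjusted p = 0.0937). All 3 low strains had close means, 92.6 in BXH6, 84.7 in BXH10 and 83.2 in BXH19. Within 2 of them the arrays stood apart, at 40.5 and 128.8 in BXH10 and at 125.8 and 40.6 in BXH19. These signals are dim, under the 168.8 that a mean over all arrays needed for a gene to be tested. Wnt4 thus passed this filter through its brighter groups, among them the high strains. Without the filter its limma adjusted p was 0.00993. The sign of the Wnt4 difference was the same in each of the 41 other settings that tested it, but the call was lost in 12 of them, among them those without BXH19, without any 1 of the 4 arrays of BXH10 and BXH19, and with strain as a random block over arrays (adjusted p = 0.0512).

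**Figure D1:**
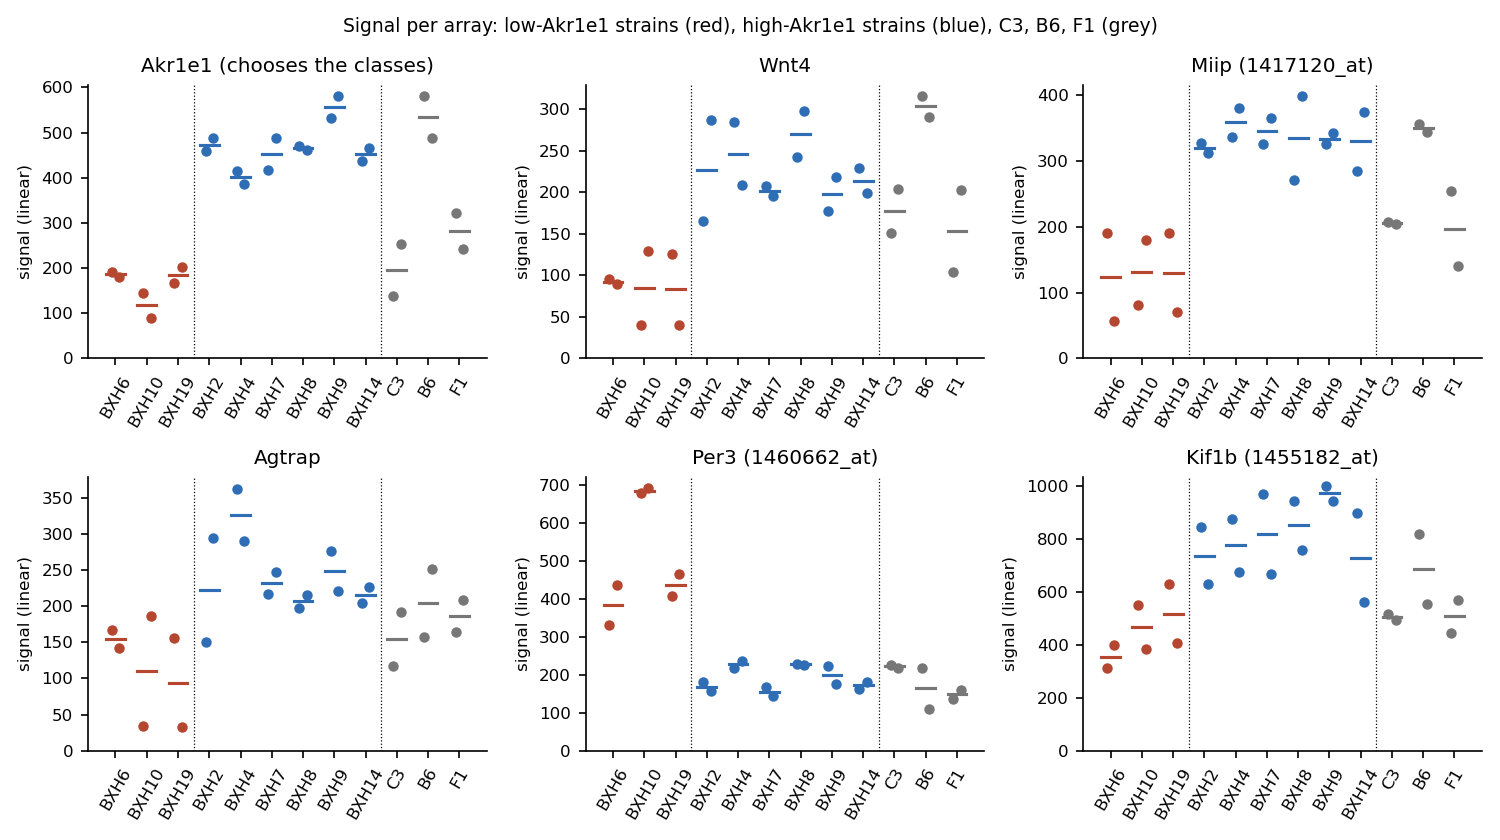
Linear signal of 6 probe sets on every array, for the 3 low-Akr1e1 strains (red), the 6 high-Akr1e1 strains (blue) and C3, B6 and F1 (grey). Points are arrays and bars are means of the 2 arrays of a strain. Akr1e1 chose the strains. The low-strain arrays of Wnt4 (40.5 to 129) and of the Miip probe set (57.1 to 190.2) lay under every high-strain array, and those of the Per3 probe set (331.8 to 692) above every one.

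Genes next to Akr1e1 on chromosome 13 were divided in the same strains at a share near that of all genes. Akr1e1 is gene 44 of 2269 annotated genes on the chromosome in RefSeq order. Within 100 annotated genes on either side, 24 genes were tested, 0 were called, and their differences ran from -0.73 to 0.18 with a median of -0.02. One of the 24 had strain means that did not overlap between low and high strains, against 2.31% of all 8279 genes. It was Ero1b, an oxidase of the endoplasmic reticulum that drives disulfide bond formation, with a difference of -0.16 (limma unadjusted p = 0.108). One other had an unadjusted p under 0.05, against 4.01% of all genes. It was Calml3, a calmodulin-like protein of epithelia, with a difference of -0.62 (SE 0.22, limma unadjusted p = 0.0194) and overlapping strain means.

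The nearest tested genes had small differences. Akr1c14, a hydroxysteroid dehydrogenase of the same family 14 genes before Akr1e1, had a difference of -0.03 (SE 0.20, limma unadjusted p = 0.871). Klf6, a zinc-finger transcription factor 12 genes after it, had a difference of -0.09 (SE 0.09, limma unadjusted p = 0.311). Pfkp, the platelet-type phosphofructokinase of glycolysis 17 genes after it, had a difference of 0.02 (SE 0.10, limma unadjusted p = 0.816). Calm4, a calmodulin-like protein of skin 20 genes before it, differed between the progenitors, with C3 minus B6 at -2.58 (limma unadjusted p = 0.0089), but its difference between low and high strains was -0.18 (SE 0.54).

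A further 10 genes within the same 100 had signals too dim for the test, 6 of them Akr1c genes, which stand in a cluster beside Akr1e1. Without the filter on dim probe sets, 0 of the 10 were called and 0 had non-overlapping strain means. The smallest p values were 0.0207 for Edaradd, an adaptor of the ectodysplasin receptor, with a difference of 0.60, and 0.0447 for Akr1c12 with a difference of -0.41. Akr1c21, the direct neighbour of Akr1e1, had a difference of 0.02 (SE 0.34). Whether probes to one Akr1c gene also bind transcripts of its close relatives was not tested.

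Of the aldo-keto reductase family, 4 of 16 listed genes were bright enough to test, and 0 were called. Akr1a1, the aldehyde reductase, had signals of 6662 to 8214 with a median of 7220 in low strains, against 5930 to 9005 with a median of 7679 in high strains. The differences were -0.03 for Akr1a1, -0.05 for Akr7a5, -0.03 for Akr1c14 and -0.002 for Akr1b8, none above its SE. All 4 turned sign under at least 1 other setting. A list of 26 tested genes of carbonyl reduction had 0 called and a median difference of -0.02. Within it Dhrs3, which reduces retinal, had a difference of 0.31 (SE 0.11, limma unadjusted p = 0.0184) and lies on chromosome 4. Of 16 tested targets of the oxidant sensor NRF2, 0 were called and the median was 0.01. Of 17 tested genes of glycogen metabolism, 0 were called and the median was -0.09, and 3 had an unadjusted limma p under 0.05 with a negative difference, as 2.09% of all genes did. They were Pygm, the muscle glycogen phosphorylase, at -0.73 (SE 0.32), Gys1, the muscle glycogen synthase, at -0.80 (SE 0.35) and Hk2, a hexokinase, at -0.29 (SE 0.13). Muscle genes were lower in the same strains (given below), and with the mean level of the skeletal muscle list as a covariate Pygm was at -0.20 and Gys1 at -0.39. Pygm is itself a member of that list. The median over all 8279 genes was 0.00.

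Along the whole of chromosome 13, 286 genes were tested and 0 were called. An unadjusted p under 0.05 was met by 16 genes, 5.59% against 4.01% of all genes, and 10 genes, 3.5% against 2.31%, had non-overlapping strain means. Both shares are near those of all genes. Of the 286 genes, 42 were among the first 300 annotated genes and 16 among the next 300, so most lay far from Akr1e1. All 9 genes that met both conditions also lay more than 500 genes from Akr1e1. The nearest was Hdgfl1, 542 genes after it, with signals of 304 to 454 and a median of 343 in low strains, against 174 to 340 and a median of 285 in high strains. Its arrays overlapped, and its difference was 0.34 (SE 0.10, limma adjusted p = 0.996). It was 0.06 without the first array of every strain and 0.62 without the second.

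The other chromosome 13 genes of this kind included Tubb2a, a beta-tubulin, at -0.31 and Ssr1, a subunit of the complex beside the endoplasmic reticulum translocon, at 0.13. Tmem14c, a mitochondrial protein needed for haem synthesis, was at 0.18 and Scamp1, a membrane protein of secretory vesicles, at -0.21. Zbed3, a partner of axin, was at -0.25, Ankra2 at 0.20, Rad17, which loads the checkpoint clamp at damaged DNA, at -0.23 and the serotonin receptor Htr1a at -0.31. The other tested probe set of Htr1a was at 0.28 (SE 0.14, limma unadjusted p = 0.0733), and the mean of both gave -0.01. Each gene had an adjusted p of 0.996, and 0 of the 10 non-overlapping genes on the chromosome had an unadjusted p under 0.05 for C3 minus B6, which 9.32% of all genes had. The signs followed C3 minus B6 in 4 of the 10.

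Genes of chromosome 13 that differed most between the progenitors matched the Akr1e1 division in at most 6 strains. There were 9 with an unadjusted limma p under 0.01 for C3 minus B6, a level met by 4.09% of all genes. Counting for each RI strain whether its mean lay nearer C3 or B6, a complete match with the Akr1e1 division would give 9 of 9 strains. Calm4 matched in 6 strains, and the other 8 genes in 3 to 5. Calml3, outside these 9 with C3 minus B6 at -0.92 (limma unadjusted p = 0.0228), matched in 8 strains, lying nearer C3 in BXH6, BXH10, BXH19 and BXH7. Fgfr4, a fibroblast growth factor receptor with C3 minus B6 at 0.79, lay nearer C3 in BXH10, BXH7, BXH8 and BXH9. Cxcl14, a chemokine of epithelia with C3 minus B6 at -1.05, lay nearer C3 in BXH19, BXH7 and BXH9. Nnt, the mitochondrial transhydrogenase known to carry a deletion in C57BL/6J mice, had C3 minus B6 at 0.95 and lay nearer C3 in all 9 strains.

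The far end of chromosome 4 held a larger share of genes with the Akr1e1 division than the rest of the genome did, although most such genes lay elsewhere. The stretch from Wnt4, gene 2343 of 2923 on that chromosome, to the chromosome end was marked off after its values were seen. Of 114 tested genes in the stretch, 26 had an unadjusted p under 0.05, 22.8% against 4.01% of all genes, and 15 had non-overlapping strain means, 13.2% against 2.31%. The rest of chromosome 4 had 11 of 378 genes, 2.91%, under that p and 3, 0.794%, without overlap. Among genes on neither chromosome 4 nor chromosome 13 the shares were 3.72% and 2.17%, and the chromosomes other than 4 and 13 held 163 of the 191 non-overlapping genes.

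The 15 non-overlapping genes of this stretch comprised 9 with lower means in low strains, a state of 1.06% of all genes, and 6 with higher means, a state of 1.24%. In 13 of the 15 the sign matched that of C3 minus B6, which was measured on arrays that the division did not use, against 83 of 191 such genes over all chromosomes. Exactly BXH6, BXH10 and BXH19 lay nearer C3 in 17 of all 8279 genes, 0.205%. Of these 17 genes, 5 lay in this stretch, 4.39% of its 114, and 12 elsewhere, 0.152%. On chromosome 13 there were 0 of 286, which is near the share of all genes. Those of the stretch were Miip, 2510039O18Rik, Agtrap, Ube4b and Plekhn1. Fitted over probe sets, the unadjusted limma p for C3 minus B6 was 0.0204 for 2510039O18Rik and 0.102 to 0.494 for the others. Of the 15 non-overlapping genes, 4 had an unadjusted p under 0.05 for C3 minus B6, against 14.9% of the 114 genes. The nearer progenitor is thus uncertain for most of them. The share of the stretch with an unadjusted p under 0.05 was 14% to 24.6% when 1 strain was left out, lowest without BXH19, and 14.9% without the first array of every strain. It was 14.9% with the mean level of skeletal muscle genes as a covariate. The share of all genes in these fits was 3.44% without BXH19, 2.61% without the first arrays and 3.32% with that covariate.

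**Figure D2:**
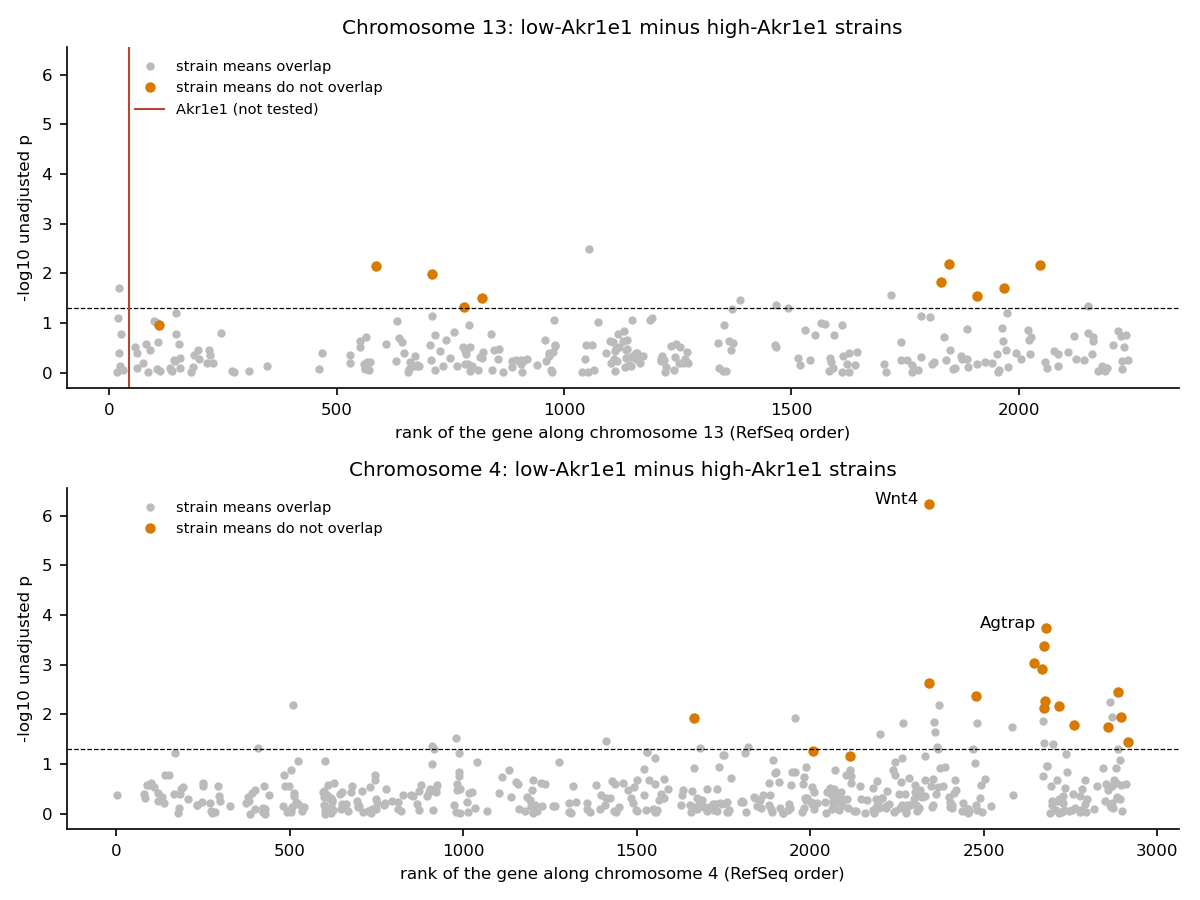
Each point is a tested gene of chromosome 13 (top) or chromosome 4 (bottom), placed by its rank along the chromosome and by -log10 of the unadjusted limma p for low minus high strains. Orange points had strain means that did not overlap, the dashed line marks the 0.05 level and the red line marks Akr1e1. The orange points of chromosome 4 gather from Wnt4 to the chromosome end (15 of 18). Of the 24 tested genes of chromosome 13 within 100 genes of Akr1e1, 1 is orange, against 2.31% of all genes tested.

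Miip, a protein that binds IGFBP2 and limits cell migration, has 2 probe sets bright enough to test singly. When each probe set was tested singly, 2 of 12498, 0.016%, were called, both in this stretch, those of Wnt4 and Miip. The called Miip probe set had a lowest signal of 57.1, a median of 131 and a highest of 190.2 in low strains, against 271, 331 and 399 in high strains. No arrays overlapped, and the signal fell by 1.42 on the log2 scale (SE 0.09, limma adjusted p = 6.90e-05 over probe sets). C3 averaged 206 and B6 350 with this probe set, so the low strains again lay under C3. The other probe set, which stood for Miip among genes, had a difference of -0.44 (SE 0.10, adjusted p = 0.957 over probe sets).

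Agtrap, which binds the angiotensin type 1 receptor and promotes its internalisation, had signals of 32.5 to 187 with a median of 149 in low strains, against 150.4 to 363 with a median of 224 in high strains. The arrays overlapped but the strain means did not, and the difference was -1.12 (SE 0.20, limma adjusted p = 0.477). Its lowest arrays were the same as for Wnt4, the first of BXH10 at 34.2 and the second of BXH19 at 32.5. Nppa, the atrial natriuretic peptide, 6 genes before Agtrap, had signals of 100 to 318 with a median of 241 in low strains, against 143 to 8715 with a median of 767 in high strains. Its difference was -1.79 (SE 0.54, adjusted p = 0.996), and it is a gene of heart muscle, whose other genes are given below.

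2510039O18Rik, between Miip and Agtrap, had signals of 594 to 674 with a median of 619 in low strains, against 670.4 to 1110.3 with a median of 930.3 in high strains. Its arrays overlapped by a small margin, its difference was -0.48 (SE 0.10, limma adjusted p = 0.505), and C3 minus B6 was -0.52. Its other tested probe set went the other way, with a difference of 0.15 (SE 0.11) and C3 minus B6 of 0.13, and the mean of both gave -0.17. Clcn6, a chloride-proton exchanger of late endosomes in the same interval, had 250 to 351 with a median of 301 in low strains and 175 to 289 with a median of 201 in high strains, a difference of 0.44. Lower and higher genes thus stood side by side.

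Per3, a member of the circadian clock, had 2 probe sets, both brighter in low strains. The probe set with the smaller p had signals of 332 to 692 with a median of 449 in low strains, against 143 to 237 with a median of 180.2 in high strains. No arrays overlapped, and the difference was 1.28 (SE 0.18, limma adjusted p = 0.110 over probe sets). C3 averaged 222 and B6 164, so the low strains lay above both progenitors. The probe set that stood for the gene had a difference of 0.69 (SE 0.24, adjusted p = 0.996 over genes). The 12 tested clock genes had 0 called and a median of -0.05, and Per3 was the single one with an unadjusted p under 0.05.

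Kif1b, a kinesin that moves vesicles and mitochondria along axons, showed a difference with 1 of 6 tested probe sets. That probe set had signals of 312 to 630.5 with a median of 404 in low strains, against 563 to 1002 with a median of 862 in high strains, a difference of -0.86 (SE 0.13, limma adjusted p = 0.126 over probe sets). Its arrays overlapped but its strain means did not. The other 5 had differences between -0.12 and 0.20. Ube4b, a ubiquitin chain elongation factor that follows Kif1b directly, had a difference of -0.25 (SE 0.08).

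Towards the chromosome end the division of strains varied between genes. Gnb1, a beta subunit of heterotrimeric G proteins with C3 minus B6 at 1.21, had mean signals of 4656 in BXH6, 2154 in BXH10 and 4077 in BXH19, against 1904 to 2297 in high strains. BXH10 thus lay with the high strains. With all strains the difference was 0.70 (limma adjusted p = 0.996), and without BXH10 it was 1.05 (limma adjusted p = 0.00732). The latter fit leaves out the strain that departs, so its p is no support for the division. One of 4 tested probe sets of C1qtnf12, a secreted protein of fat tissue known as adipolin, also lay nearer C3 in BXH6 and BXH19 alone, with a difference of -1.33 (SE 0.33). All 3 tested probe sets of Faap20, a part of the Fanconi anaemia core complex, did the same, with differences of -0.23, -0.81 and -0.50. Cptp, which carries ceramide-1-phosphate between membranes, lay nearer C3 in BXH6, BXH10, BXH19 and BXH9, with a difference of 0.34 (SE 0.09). Plekhn1, beyond all of these as gene 2916, lay nearer C3 in exactly BXH6, BXH10 and BXH19, with a difference of -0.18 (SE 0.08).

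Near Wnt4 the division also varied between genes. Cdc42, directly after Wnt4, had a difference of 0.29 (SE 0.07) where C3 minus B6 was -0.14, and matched in 0 of 9 strains. Its other tested probe sets were at 0.02 and -0.06. Ece1 lay nearer C3 in the low strains and in BXH4, BXH7, BXH8 and BXH14. Hp1bp3 lay nearer C3 in the low strains and in BXH7, BXH8, BXH9 and BXH14. Alpl, the tissue-nonspecific alkaline phosphatase, had a difference of 0.69 (SE 0.24) and C3 minus B6 of 0.84. Pink1, a kinase that marks damaged mitochondria, had a difference of -0.74 (SE 0.22) and C3 minus B6 of -1.30. Both lay nearer C3 in BXH6, BXH10, BXH19 and BXH7. Pink1 had signals of 601 to 1117 with a median of 817 in low strains, against 804 to 1972 with a median of 1512 in high strains.

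The signs did not always follow C3 minus B6. Fblim1, a filamin-binding protein of cell junctions, had a difference of -0.52 (SE 0.18) where C3 minus B6 was 0.84, while its other tested probe set was at 0.08 (SE 0.17). With these 9 strains, a relation of these genes to Akr1e1 and a shared inheritance of both regions cannot be told apart.

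**Figure D3:**
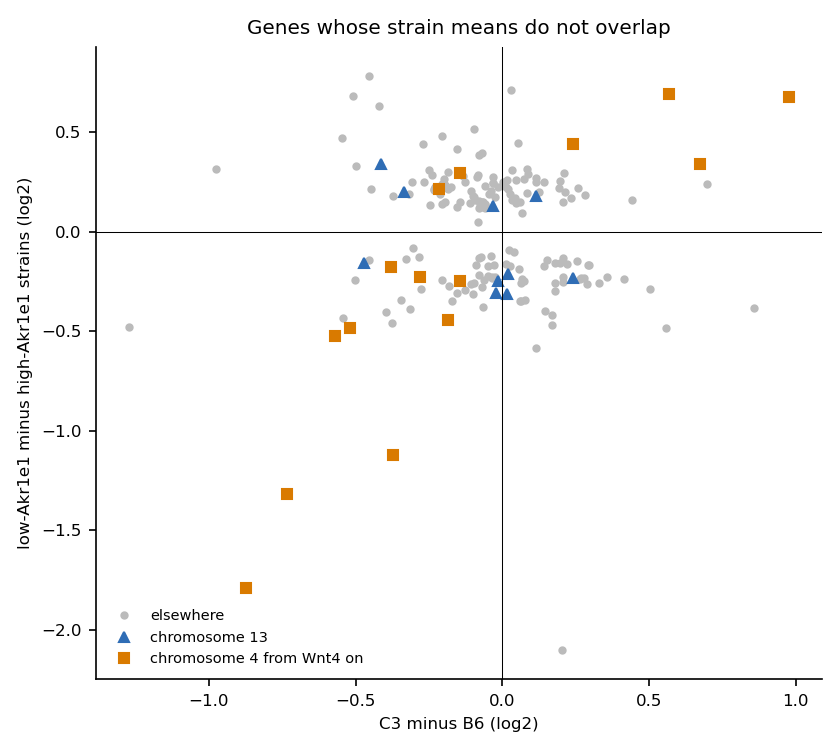
Genes whose strain means did not overlap (191 of 8279), plotted as low minus high strains (y axis, log2) against C3 minus B6 (x axis, log2). Orange squares are the 15 genes of chromosome 4 from Wnt4 on, blue triangles the 10 genes of chromosome 13 and grey points the rest. Of the squares, 13 share the sign of both differences, and 4 of the 10 triangles do.

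Over all chromosomes, 339 genes had an unadjusted p under 0.01 for C3 minus B6, and their match with the Akr1e1 division was counted in the same way. None, 0 of 339, matched in all 9 strains, and 8 matched in 8 strains. Of those 8 genes, 5 lay on chromosome 4 from Wnt4 on, namely Alpl, Pink1, Zfp991, Gnb1 and Cptp. The other 3 were Krt79 on chromosome 15, Cmpk2 on chromosome 12 and Tmem47 on the X chromosome. Of 17 genes chosen as markers of other loci, each matched in at most 6 strains. Baiap2l1 on chromosome 5 matched in 6 strains, H2-D1 and H2-K1 of the major histocompatibility complex in 4 and Cap1 of the middle of chromosome 4 in 3.

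Krt79, a type II keratin, had signals of 616 to 1518 with a median of 1038 in low strains, against 446 to 742 with a median of 528 in high strains. BXH10 and BXH19 lay nearer C3, which averaged 1640.0, and BXH6 lay nearer B6, which averaged 495. The difference was 0.85 (SE 0.23, limma adjusted p = 0.996). Sparcl1, a matricellular protein on chromosome 5, matched in 0 of 9 strains, the single gene of the 339 to do so. Its difference was 0.47 (SE 0.08, adjusted p = 0.477) where C3 minus B6 was -0.55, so all 3 low strains lay nearer B6 and all 6 high strains nearer C3.

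Other genes outside chromosomes 4 and 13 that stood apart in all strain means had varied functions. Bpifa1, a secreted protein of the airway lining on chromosome 2, had signals of 277 to 5308 with a median of 1608 in low strains, against 3649 to 9947 with a median of 6908 in high strains. Its difference was -2.10 (SE 0.40, limma adjusted p = 0.477), while C3 averaged 6911 and B6 5924. BXH6 stood between, with arrays at 5308 and 2848, and without BXH6 the difference was -2.77 (limma adjusted p = 0.00243). That fit was the 1 of 29 with samples left out that called Bpifa1. It leaves out the low strain nearest the high ones, so its p is no support for the division. Of the other 7 tested club cell genes, 0 had an unadjusted p under 0.05, and the list of 8 had 0 called and a median of 0.01.

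Lower by mean with no overlap of strains were also Tgif2, a repressor of TGF-beta responses, at -0.58 (SE 0.12) and Sfrp5, a secreted Wnt antagonist, at -0.48 (SE 0.12). Brighter without overlap were Sphk1, a sphingosine kinase, at 0.78 (SE 0.27), Oxtr, the oxytocin receptor, at 0.71 (SE 0.22) and Nptx1, a neuronal pentraxin, at 0.68 (SE 0.16). Trim43a at 0.63, Ate1, the arginyltransferase of the N-degron pathway, at 0.52 and Nt5e, the ectonucleotidase CD73, at 0.48 completed the set named by size. Zbtb17 (Miz-1), a transcription factor at -0.53, and Zfp991, a zinc-finger protein at 0.67, were the remaining named genes and lie on chromosome 4 from Wnt4 on. None of those named in this paragraph passed, with limma adjusted p from 0.505 to 0.996.

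By Pearson correlation over the 9 strain means, the genes most like Akr1e1 were Fermt3 (0.96), Wnt4 (0.94), Sfrp5 (0.91), Bpifa1 (0.91) and Ncaph2 (0.89). The most opposite were Arpc2 (-0.93), Rhot1 (-0.93), Ssr1 (-0.92), Tmem183a (-0.91) and Tesmin (-0.90). All share the same arrays and the wide gap between low and high strains, and Ssr1 alone of these 10 lies on chromosome 13.

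Muscle genes had lower means in the low strains. Of 13 tested skeletal muscle genes, 0 were called, 3 had an unadjusted limma p under 0.05 with a negative difference, again against 2.09% of all genes, and all 13 had differences under 0, with a median of -2.24 against 0.00 over all genes. Their summed signal per array ran from 1778 to 14490 in low strains and from 1906 to 50443 in high strains, and no member was at 0 on any array. Myl1, a fast myosin light chain, had signals of 15 to 505 with a median of 93.0 in low strains, against 49.5 to 5712 with a median of 1908 in high strains. Of 9 tested heart muscle genes, 0 were called, 3 had a p under 0.05, all 9 had differences under 0 and the median was -0.32.

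The mean log2 level of the skeletal muscle list was 7.19 to 8.18 in low strains, against 6.83 to 8.25 in BXH4, BXH7 and BXH14 and 10.87 to 11.21 in BXH2, BXH8 and BXH9. The low strains thus overlapped with part of the high strains. In bulk lung, fewer cells of a type and less RNA per cell cannot be told apart. With the mean level of the skeletal muscle list as a covariate, the Wnt4 difference was -1.30 (limma adjusted p = 0.0526), and with that of the heart muscle list -1.38 (adjusted p = 0.0511). Nppa was at -0.93 with the skeletal and -0.72 with the heart covariate, and Myl1 at -0.93 and -0.89. Agtrap was at -1.22 with the skeletal and -1.28 with the heart covariate, and 2510039O18Rik at -0.53 and -0.45. The differences of Nppa, a member of the heart list, and Myl1, a member of the skeletal list, were thus nearer 0, and those of Agtrap and 2510039O18Rik moved little.

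**Figure D4:**
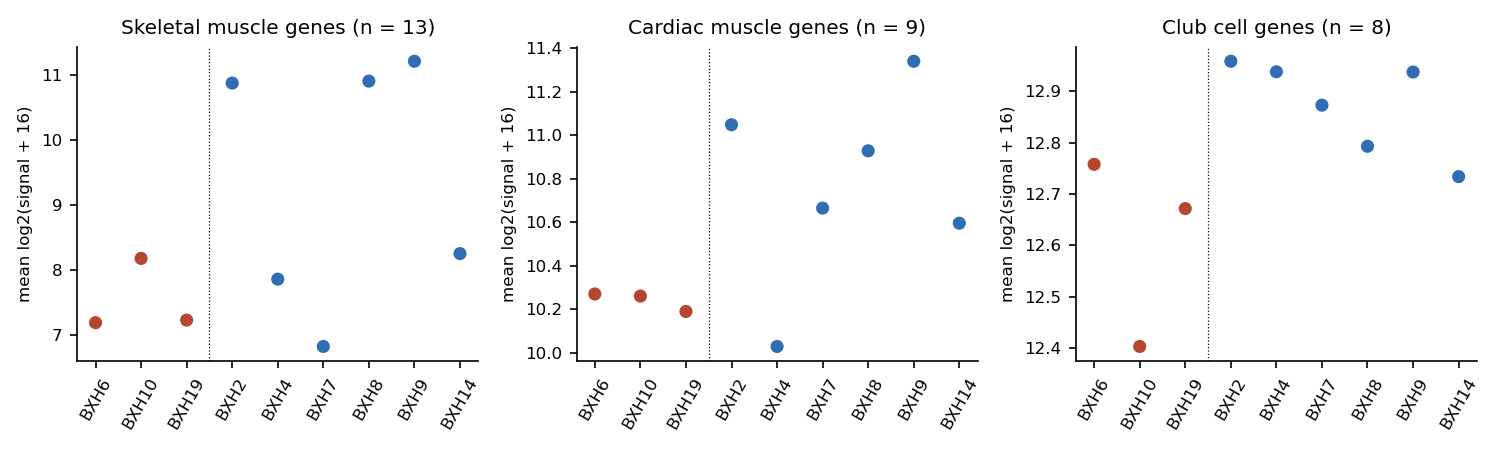
Mean log2(signal + 16) per strain of the tested skeletal muscle genes (n = 13), heart muscle genes (n = 9) and club cell genes (n = 8), for low-Akr1e1 strains (red) and high-Akr1e1 strains (blue). The y axes do not start at 0 and differ between panels. For skeletal muscle the low strains lie between 7.19 and 8.18, near BXH4, BXH7 and BXH14, and under BXH2, BXH8 and BXH9.

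Lists of lung cell types had medians nearer 0, and 0 of their genes were called. The median difference was 0.01 for 11 genes of type 2 alveolar cells, 0.03 for 7 of type 1 cells, 0.05 for 11 of endothelium and 0.20 for 8 of alveolar macrophages. Of the macrophage genes 1, Krt79, had an unadjusted limma p under 0.05 with a positive difference, as 1.92% of all genes did. The summed signal of the type 2 list ran from 85638 to 110193 in low strains and from 84033 to 116337 in high strains, so these lung genes were bright in both. Of 14 tested interferon response genes, 0 were called, 12 had differences under 0 and the median was -0.16. Gbp2, a guanylate-binding GTPase, had signals of 434 to 944 with a median of 690.0 in low strains, against 738 to 1704 with a median of 1062 in high strains, a difference of -0.68 (SE 0.21, limma adjusted p = 0.996).

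Of 8 tested neutrophil genes, 0 were called, 5 had differences under 0 and the median was -0.37. The highest difference was 0.22, and the lowest was -0.86 (SE 0.37) for S100a8, a calcium-binding protein of neutrophils. Its arrays overlapped, at 661 to 4306 in low strains and 1372 to 5391 in high strains. Of 11 immediate early genes, 0 were called, and all 11 had differences under 0 with a median of -0.13. The medians were -1.30 for 5 squamous epithelial genes, -0.47 for 4 adipose genes, -0.21 for 8 B cell genes, -0.22 for 6 NK cell genes and -0.17 for 3 mesothelial genes, with 0 called in each. They were 0.09 for 4 genes of ciliated cells, 0.08 for 12 of the cell cycle, -0.08 for 14 of oxidative phosphorylation, -0.02 for 9 of MHC class I and 0.13 for 7 of MHC class II, again with 0 called.

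Several of these medians rested on single strains. When 1 strain was left out, the squamous median ran from -1.89 to -0.48, nearest 0 without BXH6, and the adipose median from -0.65 to -0.25, nearest 0 without BXH8. The NK cell median ran from -0.54 without BXH19 to 0.01 without BXH4, and the mesothelial median from -0.35 without BXH19 to -0.02 without BXH10. The neutrophil and B cell medians were nearest 0 without BXH2, at -0.13 and -0.12, and the heart muscle median was nearest 0 without BXH9, at -0.19. The interferon median ran from -0.28 without BXH19 to -0.07 without BXH4. The skeletal muscle median stayed between -2.76 and -1.77. The medians for type 1 and type 2 alveolar cells, club cells, endothelium, clock genes, cell cycle and MHC class I turned sign when some single strain was left out.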

How the data were processed

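Lung RNA of 9 BXH strains, C3, B6 and their F1 hybrid was hybridised to 24 arrays, 2 per strain. The deposited table gives, for each probe set and array, a linear intensity called signal here. The software and scaling by which the authors made these intensities is not given in the sources used here. Each array's mean, trimmed by 2% at each end, was 500.1, so no further normalization was applied. Array medians lay between 239 and 270, correlations between the arrays of a strain between 0.949 and 0.975 (across genes), and 0 pairs of arrays were identical. The number of arrays limits the precision. The labels do not state whether both arrays of a strain stem from different animals, and p-values cover only the spread among these samples, possibly technical.

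Of 22690 probe sets, 20380 had 1 gene symbol, 691 several, 1555 none and 64 were controls. Gene order came from RefSeq on GRCm38.p6. A gene was represented by its brightest probe set and tested if that was in the top 60% by mean log2(signal + 16), about a signal of 168.8, so the log2 differences understate changes of dim genes. Strain means of 3 low and 6 high strains were compared with limma 3.58.1 in R 4.3.3 (lmFit, eBayes with a mean-variance trend), with Benjamini-Hochberg adjustment over 8279 genes and a threshold of 0.05. Single genes also had an exact permutation test over strains. C3 minus B6 came from a model of all 24 arrays with 12 strains as groups. On simulated data for 8280 genes, the low minus high fit recovered 95% of 100 genes changed by 1 on the log2 scale and 98% of 100 changed by 2, with 13 further calls among unchanged genes. With that many changed genes the adjustment accepts larger p-values than in the real data, where 1 gene was called. These shares therefore do not give the recovery for the real data, where Agtrap at -1.12 and Bpifa1 at -2.10 were not called.

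The strains, gene lists and tests were chosen with earlier results of these data known. Named were called genes, chromosome 13 genes (up to 12) and the 8 other genes of each sign with the largest differences, with an unadjusted p under 0.05 and no overlap of strain means, and the tested aldo-keto reductases. Members of other lists, chromosome 4 genes from Wnt4 on and further probe sets were named after their values were seen. Alternatives changed the offset, normalization, filter, probe set, variance model, unit of replication and samples.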

Additional observations from a re-analysis of the deposited data

Results flagged for a closer look

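Of 46 named genes, 3 had 1 high-Akr1e1 strain far from the other 5, by Dixon's test on the 6 strain means, which chance gives in about 1 of 20 groups. Nt5e was at 8.05 on the log2 scale in BXH9, against 8.74 to 8.86 in the other high strains. Oxtr was at 6.64 in BXH14, against 7.40 to 7.84. Tkt, the transketolase of the pentose phosphate pathway, was at 11.0 in BXH4, against 11.33 to 11.53.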

How the results depend on the processing

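Wnt4 was the single gene called, so 0 genes were called where it was not. That was so with an offset of 1, with quantile normalization and with the top 40% of probe sets, where Wnt4 was too dim to be tested, and with strain as a random block over arrays, the progenitors added, or either muscle list as covariate (0 genes each, all or on other chromosomes). Deviations of first arrays correlated by -0.25 to 0.34 between strains (median 0.01), so replicate numbers were not taken to pair the samples. A batch shared by part of the arrays was not tested. With the replicate block added to the random strain block, 0 genes were called and Wnt4 was at -1.32 (SE 0.23, limma adjusted p = 0.0782). With every probe set, or the mean of a gene's probe sets, 2 were called, Wnt4 and Miip. Against the spread between arrays of a strain, which leaves out the spread between strains, 137 were called, 4 on chromosome 13 and 133 elsewhere. Leaving out 1 array or strain gave 0 to 3 genes, of all and on other chromosomes alike. Wnt4 was lost without BXH19 (adjusted p = 0.0626) or any 1 array of BXH10 or BXH19 (0.0548 to 0.226). With only 1 array per strain 0 genes were called. The chromosome 4 stretch had 16 to 28 genes with an unadjusted p under 0.05 when arrays or strains were left out. These were 14% to 24.6% of its 114 genes, against 2.61% to 8.23% of all genes. With the skeletal muscle covariate it had 17, 14.9% against 3.32%. Within 50 genes of Akr1e1, 0 of 14 tested genes had non-overlapping strain means. With so few genes, 0 is near the 2.31% of all genes. Of the 9 chromosome 13 genes that differed between progenitors, 4 had an adjusted p under 0.05. Akr1a1 was at 0.011 with the mean of probe sets and 0.041 with the heart covariate. Akr1b8 was at 0.064 with progenitors added, 0.12 with the skeletal and 0.16 with the heart covariate. Akr1c14 was at 0.063 with the skeletal covariate, and Akr7a5 at 0.11 with the skeletal and 0.081 with the heart covariate. With samples left out, Akr1a1 ran from -0.10 to 0.035, Akr1b8 from -0.064 to 0.060, Akr1c14 from -0.17 to 0.10 and Tef, a clock-controlled factor, from -0.024 to 0.26. Causes were not tested. Dim signals limit Wnt4, Agtrap and Miip, among others.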
